A study of Mus musculus with 4 samples.

Results

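The genes Ppp1r1b, Adcy5, Rgs9, Pde10a, Adora2a, Penk and Rarb are known for their high levels in the spiny projection neurons (SPNs) of the striatum, where most of them act in dopamine and cAMP signalling. They were taken from the count matrices by gene symbol, which gave 7 of the 32285 genes listed, each with a single row. The study asked what a course of the antipsychotic risperidone during adolescence leaves behind in the adult mouse cortex. C57BL/6J wild-type mice received daily intraperitoneal injections of risperidone at 4 mg/kg or of saline for 21 days from postnatal day 22 and were examined at postnatal day 90, after a washout that the labels give as 43 days, fewer than the days that lay between. Each condition had 1 pool of right hemicortices, from 5 males and 5 females, and nuclei sorted from it on a DNA stain alone, without selection for a cell type, were run on 2 lanes of a droplet-based single-nucleus RNA-seq assay. Each condition is therefore 1 biological sample, and its lanes, named here lane 1 and lane 2, are technical runs of it. No test between conditions was possible. Intervals given below are exact 95% intervals that cover counting error only, and a difference between the pools cannot be told apart from a difference in how the pools were dissected and prepared.

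In SPNs, dopamine acts on Drd1, which raises cAMP, in the neurons of the direct pathway and on Drd2, which lowers cAMP and is blocked by risperidone, in those of the indirect pathway. The adenosine receptor encoded by Adora2a works against Drd2 in the same cells, Adcy5 makes most of the striatal cAMP, Pde10a breaks it down, Rgs9 shortens the signal of the inhibitory G proteins, and Ppp1r1b encodes DARPP-32, the inhibitor of protein phosphatase that integrates these inputs. Penk encodes the precursor of the enkephalins, the opioid peptides of the indirect pathway. Rarb is a nuclear retinoic acid receptor that takes part in striatal development.

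The genes differ in length, from short peptide genes to some of the longest genes of the brain, which matters in a nuclear assay that counts introns. Positions are those of GRCm38. Penk spans 5.29 kb on chromosome 4 (4133531 to 4138819, minus strand), Ppp1r1b 9.39 kb on chromosome 11 (98348404 to 98357796, plus strand) and Adora2a 17.9 kb on chromosome 10 (75316877 to 75334784, plus strand). Rgs9 spans 72.8 kb on chromosome 11 (109225355 to 109298129, minus strand) and Adcy5 151 kb on chromosome 16 (35154877 to 35305738, plus strand). Rarb spans 388 kb on chromosome 14 (16430839 to 16819156, minus strand) and Pde10a 461 kb on chromosome 17 (8525372 to 8986648, plus strand). Genes annotated on the opposite strand overlap Ppp1r1b, Adcy5, Pde10a, Penk and Rarb, and Gm49702 overlaps Adcy5 on its own strand, so that reads of shared stretches may be counted with uncertainty.

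A start of Rarb is shown because it carries a retinoic acid response element, the kind of site through which this receptor controls its own gene. Of the 7 genes, 4 had an entry among the RefSeq promoters of GRCm38.p6 (Rgs9, Rarb, Adcy5 and Pde10a, the last with more than 1 start, which gave 5 windows). For Rarb this is the start of a shorter transcript, inside the gene as annotated above and not at its outer end. The 250 bases before it lie on chromosome 14 from 16575477 to 16575726 on the minus strand, with the element in capitals, its first base 53 bases before the start.
Rarb: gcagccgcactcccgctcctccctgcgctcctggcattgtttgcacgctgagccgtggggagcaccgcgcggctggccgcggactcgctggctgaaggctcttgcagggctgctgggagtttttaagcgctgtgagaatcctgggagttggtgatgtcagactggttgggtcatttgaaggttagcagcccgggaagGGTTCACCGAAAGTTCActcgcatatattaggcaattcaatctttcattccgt
The letters searched were GGTTCA and AGTTCA with any 5 bases between them, on both strands, which 2 of 32851 windows of this length held (0.00609%). These are the letters of the element shown, so its window had to match. Other forms of the element were not sought, and the share holds for these exact letters only. The cAMP response element TGACGTCA, which does not overlap it, was held by 508 of the 32851 windows (1.55%) and by none of the 5 windows of these genes. A match is a description of the letters, and a missing match says nothing about the factor.

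After filters, 23283 to 29981 nuclei per lane were used. The risperidone lanes were read more deeply, with a median of 5648 and 7765.5 unique molecular identifiers (UMIs, counted mRNA molecules) per nucleus against 3297 and 4049 in the saline lanes. The lowest total of a listed nucleus was 500 UMIs in both risperidone lanes against 1364 and 1630 in the saline lanes. Levels are therefore given as CPM, the UMIs of a gene per 1e6 UMIs of the same nuclei, on a scale that is not corrected for gene length, so that levels are compared within a gene and not between genes. Any pair of lanes shared 160 to 221 cell barcodes, none of them between SPN-like nuclei. Nuclei were placed in 12 classes by UMIs of marker genes, none of which is among the 7 genes, and 49.0% and 45.7% of the nuclei of the saline lanes stayed without a class, against 37.4% and 34.9% for risperidone. Not every class was deeper with risperidone. Oligodendrocyte-like nuclei had medians of 2509.5 and 2835 UMIs with saline against 1456 and 1709 with risperidone. Astrocyte-like nuclei had 2108 and 2519 against 1633 and 2322.5. Over all listed nuclei, the share of UMIs from mitochondrial genes was 0.0408% and 0.0395% with saline against 0.0185% and 0.0163% with risperidone, and the part of these differences in the ratios below was not tested.

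A small group of nuclei in these cortical pools carried SPN markers (among them Drd1, Drd2, Scn4b, Sh3rf2 and Strip2) with little of the glutamatergic markers. Such SPN-like nuclei numbered 215 and 282 in the lanes of the saline pool, against 202 and 226 for risperidone. They made up 0.835% of the nuclei of the saline pool (Clopper-Pearson interval, 0.764 to 0.911) and 0.874% of the risperidone pool (0.793 to 0.960). The lanes overlapped, with 0.728% and 0.941% against 0.786% and 0.971%. With a stricter marker minimum the shares were 0.306% (0.263 to 0.354) and 0.449% (0.392 to 0.512), and the lanes did not overlap (0.264% and 0.347% against 0.389% and 0.515%). By fold over the other classes the leading genes were Sh3rf2, Drd2, Rgs9, Rarb, Prkch, Tspear, Ano2, Strip2, Gm10754 and Penk, so 3 of the 7 genes stood among the top 10 without having been used. Neurons of this kind are not expected among cortical projection neurons or interneurons, and whether striatal tissue came with the cortex was not recorded. The median depth of the SPN-like nuclei was 4487, 5497.5, 5369 and 7576.5 UMIs in saline lanes 1 and 2 and risperidone lanes 1 and 2, the order used for all values by lane below.

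All 7 genes were highest in the SPN-like nuclei among the 12 classes, but they differed in what came second. Adora2a reached 66.8, 55.4, 60.0 and 48.3 CPM in SPN-like nuclei. In glutamatergic-like nuclei, of which there were 10954 to 12262 per lane, Adora2a stood at 1.07, 0.910, 0.658 and 0.457 CPM, so that every SPN-like value lay far above every glutamatergic-like one. Over the 4 lanes the ratio was 78.4, and mural and fibroblast-like nuclei came second at 15.8 CPM, on 22 UMIs. Vip-like interneurons held 0 UMIs of Adora2a, which allows (3 counts per lane) up to 10.6, 7.09, 4.80 and 2.91 CPM. At least 1 UMI of Adora2a was found in 22.3%, 22.3%, 28.2% and 27.9% of SPN-like nuclei and in 0.427% to 0.489% of glutamatergic-like nuclei of a lane, whose median depth was 4040, 4828, 6400.5 and 8798.5 UMIs. With each nucleus thinned to 2000 UMIs the SPN-like shares were 13.5%, 8.30%, 12% and 6.64%, which puts no condition above the other.

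Among the enzymes, Adcy5 was sharply enriched and Pde10a was widely spread. Adcy5 stood at 960, 884, 670 and 622 CPM in SPN-like nuclei against 76.9, 71.9, 48.1 and 46.0 CPM in glutamatergic-like nuclei, a ratio of 13.3 over the 4 lanes. The other 10 classes of Adcy5 ran from 63.6 CPM in astrocyte-like to 174 CPM in mural and fibroblast-like nuclei. Their lanes overlapped among the interneuron and astrocyte-like classes (28.4 to 94.3 CPM), while those of oligodendrocyte precursor-like (105 to 131), oligodendrocyte-like (117 to 177) and mural and fibroblast-like nuclei (132 to 251) lay above these. For Pde10a the SPN-like lanes gave 4692, 4659, 3753 and 3748 CPM. Glutamatergic-like nuclei held 2371, 2320, 1664 and 1678 CPM of Pde10a, so that the ratio was only 2.16. UMIs of this phosphodiesterase were found in every class. Vip-like nuclei held 1926 CPM of Pde10a, within the lane range of the glutamatergic-like nuclei, and the lowest class, the mural and fibroblast-like nuclei, still held 973 CPM. Between 97.8% and 99.2% of glutamatergic-like nuclei of a lane had a UMI of Pde10a, against 25.6% to 31.3% for Adcy5.

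Rgs9, which shortens G protein signalling, was at 767, 867, 774 and 786 CPM in SPN-like nuclei and at 32.8, 30.1, 22.4 and 21.5 CPM in glutamatergic-like nuclei, a ratio of 31.4. Endothelial-like nuclei came second for Rgs9 at 95.9 CPM, with lanes from 24.4 to 172 CPM that overlapped those of microglia-like (75.5 CPM) and Sst-like nuclei (69.0 CPM). PV-like nuclei were the lowest for Rgs9, at 18.7 CPM. Ppp1r1b, in spite of being a textbook SPN gene, gave few UMIs, with 29, 59, 64 and 74 in the SPN-like nuclei of the lanes. These corresponded to 28.9, 35.9, 51.2 and 38.8 CPM of Ppp1r1b, against 2.29, 2.33, 2.64 and 2.72 CPM in glutamatergic-like nuclei (ratio 15.3). Astrocyte-like nuclei came second for Ppp1r1b at 6.01 CPM, with overlapping lanes of other non-neuronal classes beneath them.

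Penk stood at 92.8, 76.0, 120 and 119 CPM in SPN-like nuclei and at 3.12, 3.42, 2.84 and 2.84 CPM in glutamatergic-like nuclei, a ratio of 34.0. Vip-like interneurons, which also make enkephalin in the cortex, came second for Penk with 24.6 CPM on 58 UMIs (lanes from 11.8 to 35.2 CPM). Rarb reached 1971, 1859, 1326 and 1375 CPM in SPN-like nuclei and was found in 96.7% to 98.9% of them. In glutamatergic-like nuclei Rarb was at 61.6, 57.9, 32.2 and 31.5 CPM, a ratio of 37.7. Endothelial-like (187 CPM), mural and fibroblast-like (183 CPM) and astrocyte-like nuclei (175 CPM) followed for Rarb with overlapping lanes, and Lamp5-like nuclei came last at 27.3 CPM.

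**Figure D1:**
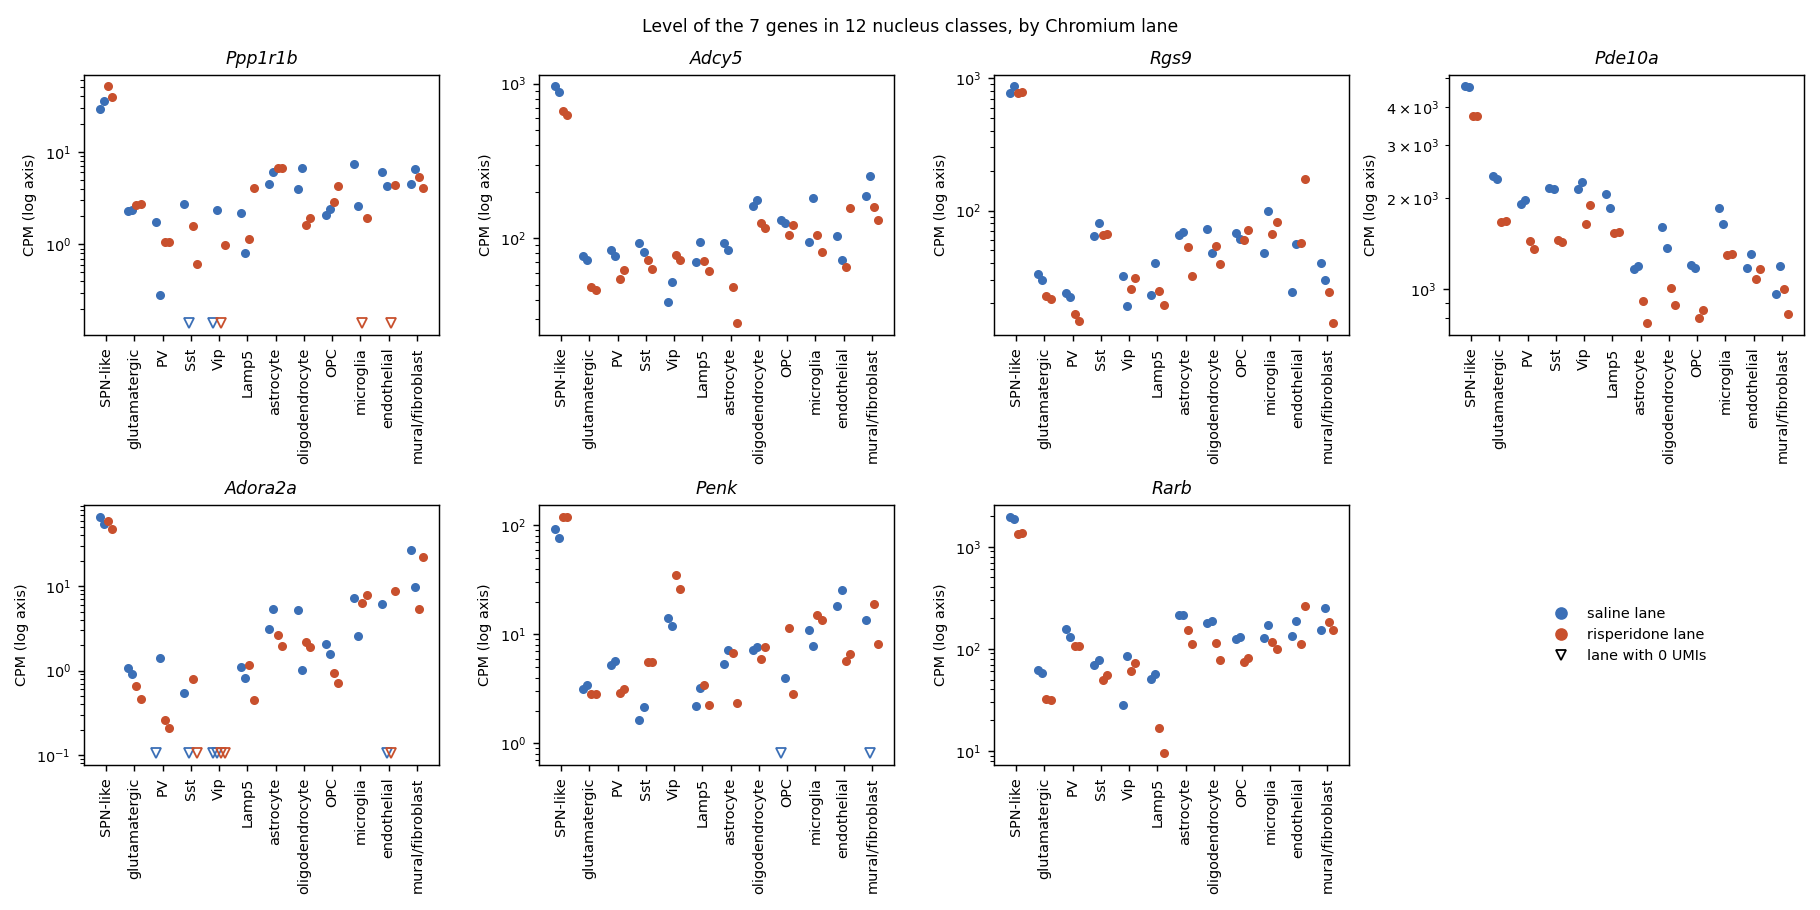
Level of each of the 7 genes in CPM (log axis) in each of the 12 classes of nuclei, with 1 point per lane, the conditions in separate colours and open triangles for lanes at 0 UMIs. SPN-like nuclei sit highest for every gene, by a wide margin for Adora2a (ratio to glutamatergic-like nuclei 78.4) and a narrow one for Pde10a (2.16).

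Most UMIs of these genes in a lane lay outside the SPN-like nuclei. Pde10a had 1.75% to 2.37% of a lane's UMIs in SPN-like nuclei, Rarb 12% to 17.1%, and Adora2a, the most restricted, 19.5% to 28.4%. Glutamatergic-like nuclei held 14.8% to 17.3% of the Adora2a UMIs of a lane. The rest lay in the other classes and in the nuclei without a class, whose levels are not given here and which may include nuclei that missed the SPN-like rule. In a pooled sample without class labels, fewer SPNs and less RNA per cell cannot be told apart.

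The genes whose levels ran most like each member over the 12 classes were sought among 13539 genes, by Pearson correlation of log2(CPM + 1), as a description over 12 points that share the same lanes. Adora2a ran most like Drd3 (r = 0.945), Mhrt (0.935) and 1810020O05Rik (0.924). For Adcy5 the closest were Sh3rf2 (0.944), Nexn (0.933) and Mhrt (0.919), and for Pde10a Trank1 (0.951), Gm17494 (0.923) and Wscd2 (0.923). Rgs9 ran with Isl1 (0.951), Tspear (0.946) and Drd2 (0.943). Ppp1r1b had Sh3rf2 (0.938) and Gm13974 (0.924) among its closest, Penk was closest to Htr4 (0.953), Zc3h12c (0.919) and Tbc1d8 (0.913), and Rarb to Drd3 (0.935), Nexn (0.935) and Impg1 (0.934). Sh3rf2 and Drd2 are SPN markers that set the class. Among the members themselves r ran from 0.257 (Pde10a with Adora2a) to 0.896 (Ppp1r1b with Adora2a).

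SPN-like nuclei were divided by their dopamine receptor. Nuclei with at least 1 UMI of Drd1 and none of Drd2 numbered 21, 27, 30 and 35 in the lanes, and those with Drd2 and no Drd1 numbered 134, 169, 124 and 135. Both receptors are among the markers that set the class. The class held 62 and 92 UMIs of Drd1 in the saline and risperidone pools, against 970 and 957 of Drd2. The numbers of nuclei therefore depend on the class rule and on detection, and are not shares of the 2 kinds of neuron. Penk gave 9 UMIs in the 113 Drd1 nuclei and 545 in the 562 Drd2 nuclei, 11.7 against 162 CPM, a ratio of 13.8 (7.21 to 30.3). For Adora2a there was 1 UMI in the Drd1 nuclei and 309 in the Drd2 nuclei, a ratio of 70.4 with an interval from 12.5 to 2789. Both genes thus marked the Drd2 nuclei, as they do in the indirect pathway. Rarb was slightly lower in Drd2 nuclei, with a ratio of 0.856 (0.806 to 0.910). The ratios of Adcy5 (1.10), Rgs9 (1.08), Pde10a (1.11) and Ppp1r1b (1.01) were close to 1. Isl1, a transcription factor of direct-pathway neurons that was not used to divide them, had 21 UMIs in Drd1 and 3 in Drd2 nuclei, a ratio of 0.0325. A requirement of at least 2 UMIs left 23 Drd1 nuclei and 461 Drd2 nuclei, and moved the ratio of Penk to 6.19 and that of Pde10a to 1.45. Within the pools that of Pde10a was 1.28 with saline, on 6 Drd1 nuclei, and 1.43 with risperidone, on 17.

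Under the main marker rule the lanes of the 2 conditions overlapped in their SPN-like share, but the called sex of those nuclei differed. Nuclei with UMIs of Xist but of no Y-linked gene (out of 4 read) were taken as female and the reverse as male, which called 37.7% to 49.8% of the nuclei of a lane female and 17.9% to 19.5% male. Of the nuclei called female, 0.333% and 0.589% were SPN-like with saline and 1.18% and 1.49% with risperidone, lane by lane. In nuclei called male the order was the opposite, with 1.45% and 1.53% for saline against 0.0624% and 0.352% for risperidone. Over the lanes, SPN-like nuclei went from 106 of 22849 female nuclei with saline (0.464%, 0.380 to 0.561) to 320 of 24151 with risperidone (1.32%, 1.18 to 1.48), and from 161 of 10783 male nuclei (1.49%, 1.27 to 1.74) to 19 of 9349 (0.203%, 0.122 to 0.317). The lanes of the conditions did not overlap in either sex. Among the SPN-like nuclei, 21.3% were called female and 32.4% male with saline, and 74.8% and 4.44% with risperidone. How many of the 10 mice of a pool gave these nuclei cannot be seen in the counts.

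**Figure D2:**
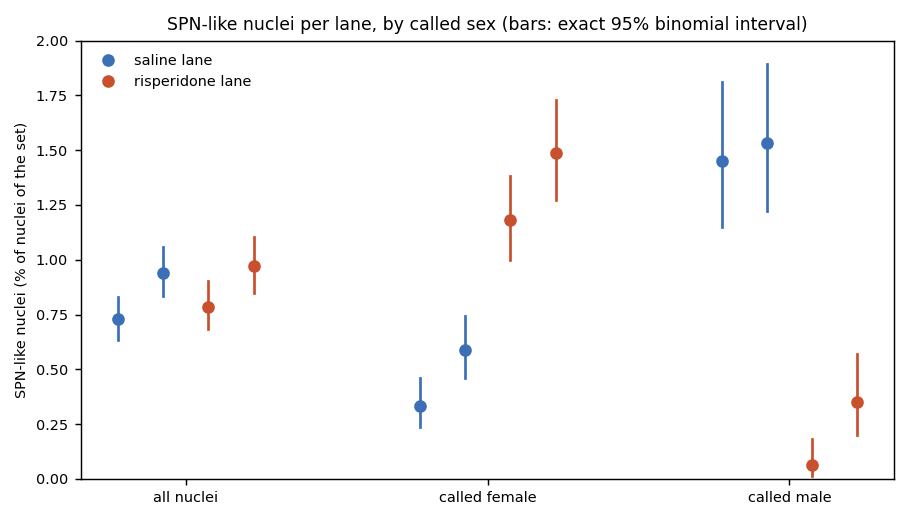
Share of nuclei that were SPN-like, in percent, for all nuclei and for nuclei called female or male, with 1 point per lane. The lanes overlap for all nuclei, while female nuclei rise from 0.464% to 1.32% and male nuclei fall from 1.49% to 0.203% between the saline and the risperidone pool.

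The risperidone and saline pools were then compared within each class. A gene was called lower or higher when its log2 ratio of risperidone to saline, on normalised summed UMIs, was at least 0.5 in size and the lanes of the pools did not overlap. Over all nuclei 5 of the 7 genes were called lower and 0 higher, where 8.22% of all genes tested were called lower and 9.93% higher. Levels beside these ratios are on the same normalised scale. Rarb went from 142 and 142 CPM to 69.5 and 72.8 CPM (log2 ratio -0.99, -1.02 to -0.97). Adcy5 went from 115 and 112 CPM to 63.4 and 63.9 CPM (-0.83). The ratio was -0.79 for Adora2a, -0.57 for Pde10a and -0.55 for Rgs9. On plain CPM 3 of these 5 were still called lower, Adcy5, Adora2a and Rarb, and in nuclei called female 2, Adcy5 and Pde10a, with -0.06 for Adora2a and -0.08 for Rgs9 there. The median over the 7 genes was -0.57, against -0.02 over all genes tested. Ppp1r1b (-0.16) and Penk (-0.10) were not called.

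In the SPN-like nuclei, the cells in which these genes are highest, the differences were smaller and went both ways. Called lower were 2 of the 7 genes and called higher was 1, where 11.0% of all genes tested were called lower and 15.6% higher. Adcy5 was lower in both risperidone lanes (log2 ratio -0.54, -0.63 to -0.46), as was Rarb (-0.52, -0.58 to -0.46). Neither was called in the SPN-like nuclei called female (-0.10 for Adcy5 and -0.06 for Rarb), and nuclei called female were 21.3% of the class with saline and 74.8% with risperidone. Penk was higher in both, at 0.50 (0.26 to 0.75), a value close to the threshold that was called in 7 of 15 other settings and not, among others, without saline lane 2 (0.35) or without risperidone lane 2 (0.49). Pde10a was lower in both risperidone lanes by less than the threshold (-0.35, -0.39 to -0.31). The lanes overlapped for Rgs9 (-0.12, -0.20 to -0.03) and Adora2a (-0.21, -0.53 to 0.12), and for Ppp1r1b the ratio was 0.36 with an interval from -0.03 to 0.77. The median over the 7 genes was -0.21, against 0.04 over all genes tested. The calls of Adcy5 and Rarb lay near the threshold, and that of Rarb held in 8 of 15 other settings: without saline lane 1, or without risperidone lane 1, Adcy5 was still called and Rarb was not (-0.50 and -0.48). In the same SPN-like nuclei 5 of 7 oligodendrocyte markers lay lower in both risperidone lanes (log2 ratio of their sum -1.07). So did 4 of the 6 markers that set the class (-0.30), while 1 of these 6 and 3 of 5 GABA markers (0.22) lay higher. Such counts of markers use no fold threshold and no minimum CPM, and the part of the markers in these ratios was not tested.

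Split by receptor, on plain CPM, Rarb, Adcy5 and Pde10a kept their direction in both kinds of nuclei, with the caution that the saline pool had 48 Drd1 nuclei and the risperidone pool 65. Rarb had a log2 ratio of -0.57 in Drd1 nuclei and -0.35 in Drd2 nuclei, Adcy5 of -0.38 and -0.49, and Pde10a of -0.47 and -0.29. Rgs9 had -0.19 in Drd1 nuclei and 0.07 in Drd2 nuclei, with an interval across 0 in both. Penk rose from 201 to 344 UMIs in the Drd2 nuclei, from 129 to 190 CPM (log2 ratio 0.56, 0.30 to 0.81). These ratios were computed without a threshold for calls, and differences between the receptors were not tested.

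Glutamatergic-like nuclei, the bulk of the cortex, held low levels of most of these genes, and there the lower levels in the risperidone pool were more marked. Called lower were 4 of the 6 genes tested and called higher 0, where 9.55% of all genes were called lower and 11.6% higher. Rarb had a log2 ratio of -1.0 (-1.05 to -0.95), Adcy5 of -0.75 (-0.79 to -0.71), Rgs9 of -0.61 (-0.67 to -0.54) and Pde10a of -0.58 (-0.59 to -0.57), and for each of the 4 both risperidone lanes were below both saline lanes. Penk (-0.31, -0.50 to -0.12) and Ppp1r1b (0.12, -0.09 to 0.34) were not called. Adora2a averaged less than 1 CPM and was not tested. The median of the 7 genes was -0.61, against 0.01 over all genes.

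Rarb was called lower in each of 9 sets of nuclei (all nuclei and the 8 classes compared) and in each of 7 glutamatergic sub-classes set by layer markers, where its log2 ratio ran from -1.36 to -0.80. In those sub-classes the summed striatal tracers described below had log2 ratios from -1.51 to -0.29 and the summed oligodendrocyte markers from -1.42 to -1.13. Over the 9 sets the tracers ran from -1.19 to 0.47, and the oligodendrocyte markers from -1.31 to -0.55 outside oligodendrocyte-like nuclei, where they had 0.30. Their part in the ratios of Rarb was not tested. Of all genes tested, 11.8%, 10.8% and 11.4% were called lower in the upper, middle and deep intratelencephalic-like sub-classes, 11.5% in extratelencephalic-like, 9.68% in near-projecting-like, 10.3% in corticothalamic-like and 11.7% in claustrum-like nuclei. Pde10a was called lower in 7 of the 9 sets and 6 of 7 sub-classes, Adcy5 in 6 of 9 and 6 of 7, and Rgs9 in 4 of 9 and 4 of 7. Ppp1r1b was called higher in 3 of the 7 sub-classes and lower in 1. Of these 3 the interval lay above 0 in corticothalamic-like nuclei, on 42 and 91 UMIs, and crossed 0 in deep intratelencephalic-like (11 and 35 UMIs, -0.25 to 1.89) and claustrum-like nuclei (6 and 26 UMIs, -0.14 to 2.74). The share of all genes called higher in the 7 sub-classes, in the order above, was 14.1%, 14.3%, 13.7%, 14.5%, 13.0%, 12.9% and 14.2%. In PV-like interneurons 5 of the 6 genes tested were called lower (11.1% of all genes tested there), in Sst-like 2 of 6 (9.64%), with Penk the 1 called higher (14.7% of all genes higher), and in Lamp5-like 1 of 6 (12.3%), Rarb, at -2.16 on 116 UMIs against 50. In astrocyte-like nuclei 5 of the 7 were called lower (13.2% of all genes), in oligodendrocyte-like nuclei 4 (12.9%) and in oligodendrocyte precursor-like nuclei 3 (11.7%), with Ppp1r1b the 1 called higher there (15.1%) on 5 and 9 UMIs. Among the genes called lower, Adora2a had an interval across 0 in astrocyte-like (22 and 11 UMIs, -2.22 to 0.08) and precursor-like nuclei (4 and 2 UMIs, -4.73 to 1.54). The steepest value of Adcy5 was in astrocyte-like nuclei, at -1.33 (-1.59 to -1.07). All 7 oligodendrocyte markers lay lower in both risperidone lanes there (-1.02 for their sum). Of the 6 striatal tracers described below 3 lay lower and 1 higher (-1.15 for their sum), counted without a fold threshold. Penk was called higher in SPN-like and Sst-like nuclei, the latter on 8 and 32 UMIs, and lower in PV-like nuclei on 35 and 26.

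**Figure D3:**
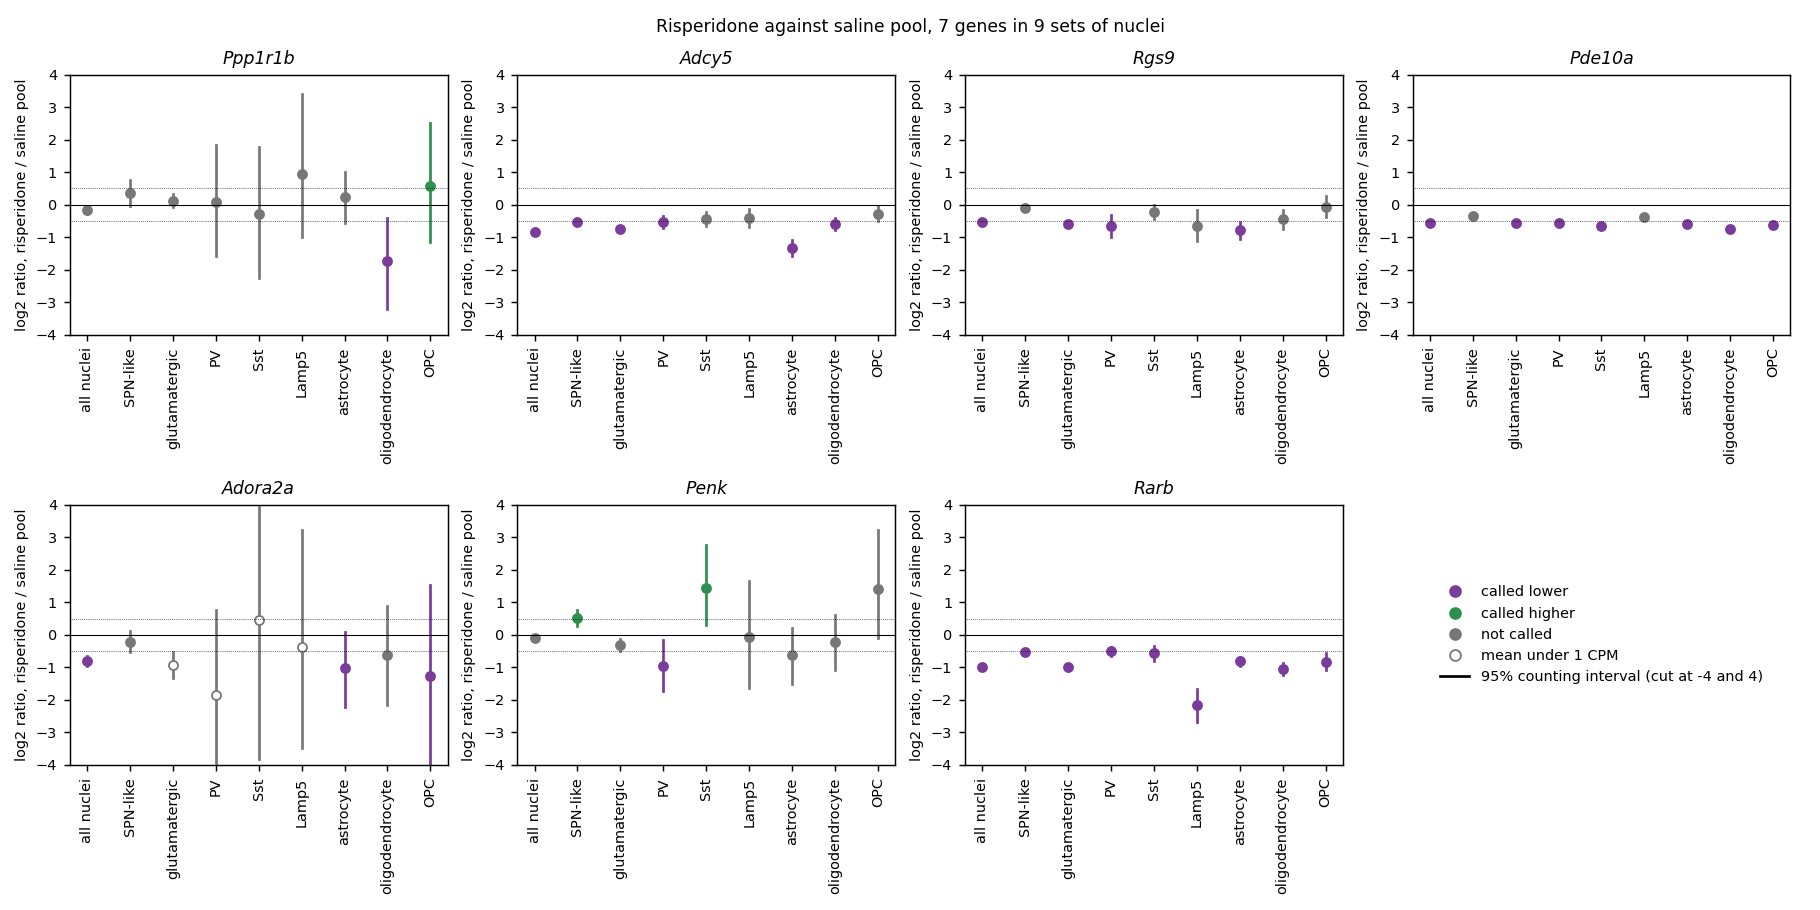
Log2 ratio of the risperidone to the saline pool for each gene in all nuclei and in each of 8 classes, with exact 95% counting intervals (cut at -4 and 4), dotted lines at the threshold of 0.5 and the calls in colour. Rarb lies below the threshold in all 9 sets, from -2.16 in Lamp5-like to -0.51 in PV-like nuclei, while Penk lies on both sides of 0.

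The values by called sex separated the genes further. Over all nuclei, 2 of the 7 genes were called lower in female nuclei (10.7% of all genes lower) and 0 higher (11.1%), against 6 lower in male nuclei (9.45%) and 0 higher (11.4%). Adora2a went from 3.94 and 3.18 CPM to 0.427 and 0.427 CPM in male nuclei, a log2 ratio of -3.04, but was at 2.02, 2.23, 2.25 and 1.88 CPM in female nuclei (-0.06, and 0.06 on plain CPM). Rgs9 had -1.47 in male and -0.08 in female nuclei (0.03 on plain CPM), and Rarb -2.06 and -0.48. Drd2, a marker of SPN-like nuclei, had -2.92 in male and -0.27 in female nuclei. Ppp1r1b (0.19, and 0.31 on plain CPM) and Penk (0.17 and 0.29) were higher in both risperidone lanes in female nuclei by less than the threshold. The share of SPN-like nuclei was lower with risperidone in male and higher in female nuclei, and its part in these ratios was not tested. Pde10a behaved the other way round, with -0.76 in female nuclei (2532 and 2513 CPM against 1474 and 1498) and -0.23 in male nuclei (2013 and 1947 CPM against 1651 and 1713).

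Within glutamatergic-like nuclei the same 3 genes were called lower in both sexes. Rarb had log2 ratios of -0.97 in female and -1.12 in male nuclei, Adcy5 of -0.78 and -0.66, and Rgs9 of -0.67 and -0.53. Pde10a was again lower in female nuclei, from 2774 and 2754 CPM to 1477 and 1499 CPM (-0.89, -0.90 to -0.88). In male nuclei Pde10a stood at 2067 and 2007 CPM with saline and at 1803 and 1882 CPM with risperidone (-0.14, -0.15 to -0.12, and -0.07 on plain CPM), so that the male lanes lay between the female lanes of the 2 conditions. In all, 4 genes were called lower in female (11.5% of all genes) and 3 in male nuclei (10.2%), with Ppp1r1b the 1 called higher in male nuclei (13%) on 48 and 117 UMIs. The difference between the sexes was not tested, since each condition has 1 pool.

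Within SPN-like nuclei 0 of the 7 genes were called lower in female nuclei (10.5% of all genes) and 2 higher (24.2%), namely Penk at 0.67 (0.20 to 1.16) and Ppp1r1b at 1.69 on 8 and 104 UMIs. Pde10a (-0.00), Rarb (-0.06) and Adcy5 (-0.10) had small ratios in female SPN-like nuclei, with Rarb at 1532, 1760, 1531 and 1684 CPM. On plain CPM the female ratios were -0.10, -0.16 and -0.20. In male SPN-like nuclei 6 of the 7 genes were called lower and 0 higher (32.0% of all genes were lower there and 4.87% higher), among them Rarb, at 2267 and 2548 CPM with saline and at 395 and 884 CPM with risperidone (-1.59, and -1.34 on plain CPM). The male risperidone values rest on 3 nuclei in lane 1 and 16 in lane 2, with 12 and 136 UMIs of Rarb.

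**Figure D4:**
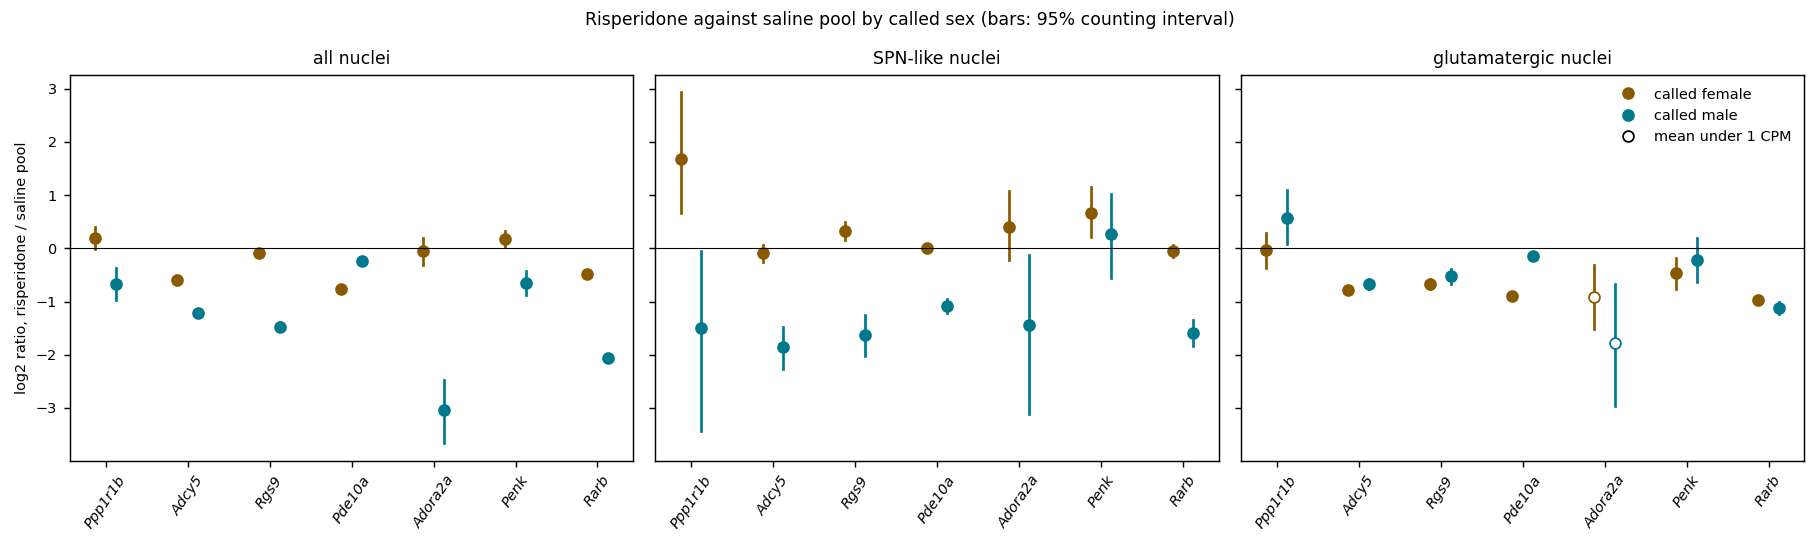
Log2 ratio of the risperidone to the saline pool by called sex in all nuclei, SPN-like nuclei and glutamatergic-like nuclei, with exact 95% counting intervals. In glutamatergic-like nuclei Rarb lies near -1 in both sexes (-0.97 and -1.12), while Pde10a is at -0.89 in female and -0.14 in male nuclei.

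Genes known from SPNs were read in the same nuclei as tracers of free striatal RNA, which droplets pick up from broken cells. The list held 6 genes that set no class (Gpr6, Six3, Isl1, Syndig1l, Rxrg and Ido1). Their summed level in glutamatergic-like nuclei was 5.26, 5.64, 2.77 and 2.69 CPM on the normalised scale, a log2 ratio of -1.01. Of the 6, 4 lay lower in both risperidone lanes than in both saline lanes, and none was at 0. Gpr6, Six3, Isl1 and Ido1 were below 1 CPM in every lane there. In SPN-like nuclei the summed level was 116, 103, 73.4 and 67.8 CPM (-0.62), where 2 of the 6 lay lower and 2 higher. These counts of markers and tracers use no fold threshold and no minimum CPM, so they are not calls. Drd2 went from 3.89 and 4.01 CPM to 1.70 and 0.994 CPM in glutamatergic-like nuclei. Markers of other cells moved there as well, with all 7 oligodendrocyte markers lower (log2 ratio of their sum -1.24) and 4 of 7 astrocyte markers (-0.20), so lower levels were found for genes of another cell type too. The 5 GABA markers were lower too (-0.95), though the class rule itself limits them. It also leaves out nuclei with raised markers of any other class, so oligodendrocyte and astrocyte markers and Drd2 are limited as well. Whether this acted alike in pools of unlike depth was not tested. By called sex, the log2 ratio of the 6 tracers in glutamatergic-like nuclei was -0.95 in female and -1.41 in male nuclei. The part of free RNA in the ratios of the 7 genes was not tested beyond the reckoning that follows.

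If the tracer UMIs of glutamatergic-like nuclei came from SPN-like RNA with its own proportions, the UMIs of a gene carried along can be computed lane by lane. By the 6 tracers this came to 9.90% of the Pde10a UMIs in glutamatergic-like nuclei of the saline pool and 8.88% of the risperidone pool. For Adcy5 it was 61.2% and 54.2%, and for Ppp1r1b 71.2% and 65.1%. More than the observed UMIs was reached for Rgs9 (132% and 141%), Penk (125% and 167%), Rarb (159% and 169%) and Adora2a (304% and 387%). RNA carried along cannot exceed what was counted, so the premise of SPN-like proportions did not hold for these 4 genes. Of the 5.26, 5.64, 2.77 and 2.69 CPM of the tracers there, Rxrg alone held 3.32, 3.90, 1.78 and 1.85 CPM. By lane, Rxrg was only 9.50 to 13.5 times as high in SPN-like as in glutamatergic-like nuclei. Six3 was 50.3 to 69.5, Syndig1l 31.4 to 56.2 and Isl1 24.2 to 80.2 times as high. Gpr6 and Ido1 were at 0 in some SPN-like lanes. The tracer mattered: by Drd2 alone the Rarb share was 33.3% and 18.3%, and by the list without Rxrg 86.4% and 78.2%. Unlike the 6 tracers, Drd2 is a marker that sets the SPN-like class and is limited in the other classes by the same rule. Shares by Drd2, here and in the classes below, therefore depend on that rule, and by how much was not tested. The expected UMIs were then taken out lane by lane, with 0 set where more was expected than counted. No interval was carried through to what was left. Pde10a kept a log2 ratio of -0.56 under all 3 choices and Adcy5 one of -0.51 to -0.64. Rarb was left at -0.70 by Drd2 and -0.32 without Rxrg, Rgs9 at -0.38 and -0.35, and for both nothing was left by the 6 tracers. That follows from shares above the counted UMIs and says nothing about either gene. The choices of single tracers were added after the data had been seen.

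The same reckoning was made in other classes, again without an interval, so that it decides nothing about the source of a ratio. It rests on the same premise, which failed above for Rgs9, Penk, Rarb and Adora2a. The 6 tracers summed to 7.49, 5.62, 2.52 and 3.09 CPM by lane in PV-like nuclei. In astrocyte-like nuclei they summed to 15.1, 9.71, 4.31 and 6.47 CPM, both on the normalised scale. In PV-like nuclei the tracers had a log2 ratio of -1.19 and 6 of 7 oligodendrocyte markers lay lower in both risperidone lanes, with -1.21 for their sum. What was left there no longer reached the threshold for a lower level by any of the 3 choices for Rarb (0.59 by the 6 tracers, -0.41 by Drd2 and -0.20 without Rxrg) and for Adcy5 (0.19, -0.45 and -0.28), while Pde10a kept -0.53, -0.56 and -0.54. In Sst-like nuclei the reckoning left steeper ratios than those counted for Pde10a (-0.96, -0.68 and -0.86 against -0.65), while Adcy5, which was not called there, had -2.59, -0.39 and -1.67 against -0.43. For Rarb, called lower there at -0.57, the 6 tracers left 0 UMIs in both pools, with or without Rxrg, and Drd2 left -0.23, so that the call was lost by each choice. In astrocyte-like nuclei the 6 tracers left 1.86% of the Adcy5 UMIs of the saline pool and 10.5% of the risperidone pool, with a ratio of 1.17, and Drd2 alone left -1.02. Rarb, called lower there at -0.81, was left at 0.38 by the 6 tracers and -0.48 by Drd2, with 0 UMIs left in the saline pool without Rxrg. Adcy5 in oligodendrocyte-like nuclei, called at -0.60, was left at 0.41, -0.41 by Drd2 and 0.10 without Rxrg. For Rgs9 in PV-like nuclei the 6 tracers left 0 UMIs, Drd2 left -0.59 and the list without Rxrg 0.90. Of the Pde10a UMIs, the 6 tracers left 52.8% and 55.8% in oligodendrocyte-like nuclei, and 33.3% and 2.12% in oligodendrocyte precursor-like nuclei.

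**Figure D5:**
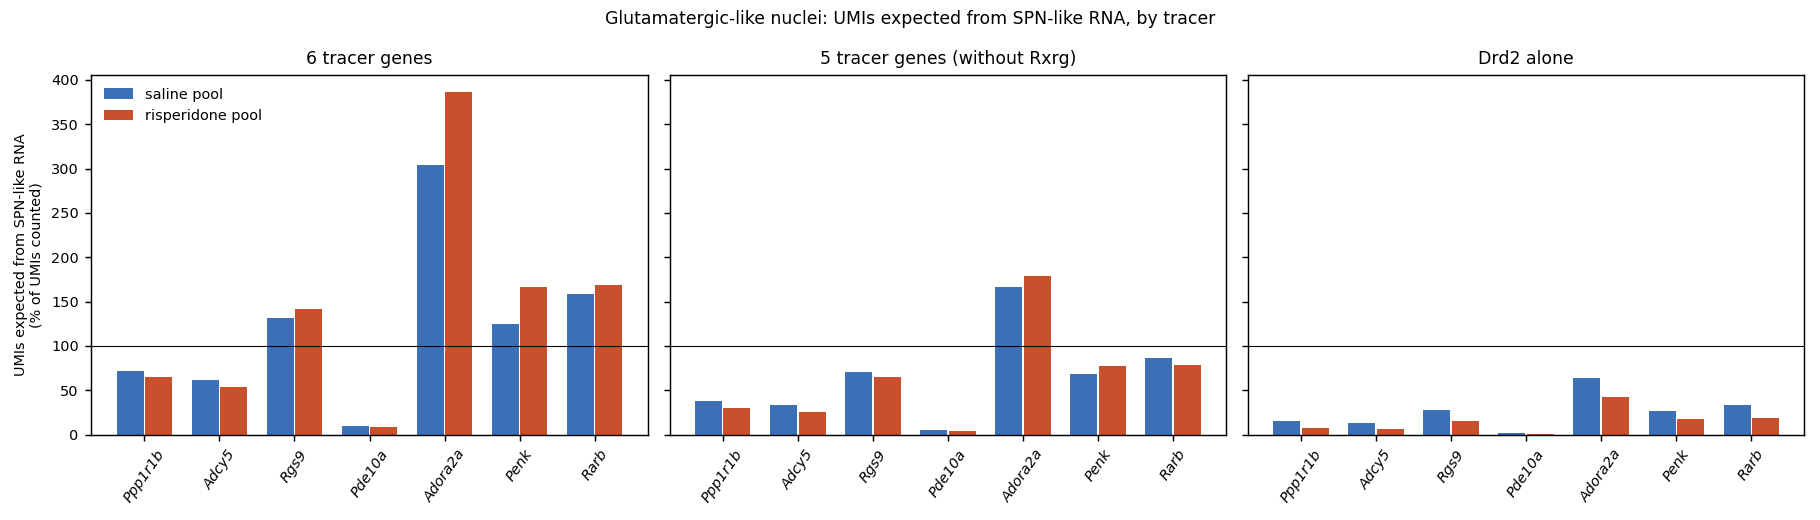
UMIs of each gene expected in glutamatergic-like nuclei from SPN-like RNA, as a percent of those observed, for the 3 choices of tracer and both pools as bars from 0 (line at 100%). Pde10a stays at or below 9.90% by every choice, while Rarb runs from 18.3% to 169%. Above the line the premise of SPN-like proportions fails.

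Gene length moved with the ratios as well. In glutamatergic-like nuclei the median log2 ratio fell from 0.14 for genes under 20 kb to -0.21 for those over 200 kb, where Rarb and Pde10a belong, and in SPN-like nuclei from 0.13 to -0.09. Set against the median of genes of like length, the glutamatergic-like ratios were -0.78 for Rarb, -0.63 for Adcy5, -0.57 for Rgs9 and -0.36 for Pde10a, which was then under the threshold. In SPN-like nuclei they were -0.50 for Adcy5, -0.43 for Rarb and 0.38 for Penk, so that against like length only Adcy5 reached the threshold. The part of gene length in the ratios was not tested further.

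The rest of the pathway was read from lists of 57 genes. In SPN-like nuclei 56 were tested, of which 5 were called lower and 3 higher, shares no larger than the 11.0% and 15.6% of all genes, with a median log2 ratio of -0.08 against 0.04 over all genes. The receptors and G proteins had 0 of 10 called. Among them Gnal, the G protein subunit that couples Drd1 and Adora2a to Adcy5, was at 652, 638, 633 and 573 CPM on the normalised scale, and Gng7, its partner, was at 486, 498, 372 and 352 CPM. Gng7 was lower in both risperidone lanes by less than the threshold (-0.45). Of the cyclases, 0 of 5 were called, with log2 ratios of 0.03 for Adcy9 and -0.25 for Adcy2. The subunits of protein kinase A and its inhibitor gave 0 of 7, with Prkar2b at -0.09 and Pkia at 0.39. Among the phosphodiesterases, Pde2a, which also hydrolyses cAMP, was the 1 of 9 called, with 633 and 664 CPM against 445 and 431 CPM (-0.58, -0.68 to -0.48). Pde7b (0.24) and Pde4b (0.01) were not called. Of the Rgs9 family and its anchors 0 of 4 were called, with -0.06 for Rgs7 and -0.15 for Rgs7bp.

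Of 11 phosphatases and substrates in SPN-like nuclei, Arpp19, a kinase-regulated phosphatase inhibitor, was called higher (0.80, 88 against 187 UMIs) and Ppp1ca, a catalytic subunit that DARPP-32 inhibits, lower on 28 against 19 UMIs, with an interval from -1.77 to 0.05. Ppp3ca (-0.06) and Arpp21 (-0.07) were not called. Of 5 neuropeptide and opioid receptor genes, the 2 called were direct-pathway peptides. Pdyn, the dynorphin precursor, rose from 21 to 77 UMIs (1.59, 0.88 to 2.36), and Tac1, the precursor of substance P, from 30 to 58 UMIs (0.67, 0.01 to 1.35). Penk, the indirect-pathway peptide, was at 0.50 in these nuclei, near the threshold as said. The class held 48 Drd1 and 303 Drd2 nuclei with saline and 65 and 259 with risperidone, and 21.3% and 74.8% female nuclei, and the part of this make-up in the peptide ratios was not tested. Oprm1 (0.42) and Oprd1 (-0.16), opioid receptors, were not called. Of the other 5 retinoid receptors, 3 were called lower beside Rarb, with a median of -0.80. They were Rxrg (-1.07, 110 against 64 UMIs), Rarg (-0.84, 44 against 30 UMIs) and Rxrb (-0.80, 20 against 14 UMIs, interval -1.90 to 0.26).

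In glutamatergic-like nuclei 52 of the pathway genes were tested, with 7 called lower and 2 higher, where 9.55% and 11.6% of all genes were, and a median of -0.12 against 0.01 over all genes. Lower were Drd2 (-1.59), Gng7 (-1.04), the calcium-dependent phosphodiesterase Pde1c (-1.35) and the exchange factor Rasgrp2 (-0.60). In SPN-like nuclei these 4 stood 143, 20.8, 43.7 and 19.0 times as high as in glutamatergic-like nuclei. The retinoid receptors Rxrg (-1.0), Rxra (-0.81) and Rara (-0.70) were lower too, of which Rara was lower in SPN-like than in glutamatergic-like nuclei (ratio 0.445). Higher were Oprm1 (0.87, 14.9 and 15.5 CPM against 29.0 and 27.1) and Arpp19 (0.65), neither of which was concentrated in SPN-like nuclei (ratios 1.60 and 1.5).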

How the data were processed

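Nuclei from 1 pool of mice per condition were run by the authors on 2 Chromium lanes each, and the reads were aligned and counted with Cell Ranger 8.0.1 on an mm10 reference with introns included. The authors deposited, for each lane, a filtered matrix of raw UMI counts, not normalised. Here, nuclei under 500 genes or over 5% mitochondrial UMIs were left out. A class needed at least 3 marker UMIs from at least 2 markers, at 4 or more times the lane's mean share, with glutamatergic markers at most 0.5 times their mean, and had to exceed the next class by a factor of 2, so that nuclei with markers of several classes stayed without one. No doublet caller was run. Glutamatergic-like nuclei needed at least 2 marker UMIs at 0.75 times the mean, GABA markers at most 0.5 times the mean and no other class raised. These thresholds were set after marker levels had been seen, and the glutamatergic rule was relaxed after values of the 7 genes were on view. Under its first form 45.6% to 62.9% of a lane's nuclei had no class.

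UMIs were summed per class and lane and over the lanes of a condition, and scaled by TMM factors of edgeR 4.0.16 over all genes of the class. Genes that averaged 1 CPM or more were tested against the threshold of 0.5. Ratios have exact conditional binomial intervals and shares Clopper-Pearson intervals, at 95%, for counting error only. The fold routine was tested on simulated data. DESeq2 1.42.0 gave alternative size factors. Python 3.11.15, numpy 2.4.6, scipy 1.17.1, pandas 2.3.3, matplotlib 3.10.9 and R 4.3.3 were used, with seed 1. Positions came from GENCODE vM21, which held 32235 of the 32285 gene identifiers (99.8%). All 7 genes are named, with pathway genes that were called (up to 3 per list and class) or of the highest CPM, not corrected for length, in SPN-like nuclei (up to 2 per list), and the 3 genes most like each member, apart from 1 gene that is not reported here. The members, lists and rules were chosen with earlier results of these data known.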

Additional observations from a re-analysis of the deposited data

Results flagged for a closer look

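The share of SPN-like nuclei moved in opposite directions in the sexes, from 0.464% to 1.32% in nuclei called female and from 1.49% to 0.203% in nuclei called male. Within SPN-like nuclei, Ppp1r1b had log2 ratios of 1.69 in female and -1.51 in male nuclei, and Rgs9 of 0.32 and -1.63, the male values resting on 19 risperidone nuclei. Over all nuclei, Ppp1r1b had 0.19 in female and -0.66 in male nuclei, and Penk 0.17 and -0.65. Between classes, Ppp1r1b had log2 ratios of 0.36 in SPN-like, 0.12 in glutamatergic-like and 0.22 in astrocyte-like nuclei, none called and each with an interval that crossed 0. It was called higher in oligodendrocyte precursor-like nuclei (0.59, on 5 and 9 UMIs, -1.15 to 2.51) and lower in oligodendrocyte-like nuclei (-1.73, on 19 and 7 UMIs). Penk was called higher in SPN-like (0.50) and Sst-like nuclei (1.45) and lower in PV-like nuclei (-0.94). It had -0.31 in glutamatergic-like and -0.23 in oligodendrocyte-like nuclei (-1.07 to 0.60, on 26 and 27 UMIs), where it was not called. In each case every lane of the one group moved against every lane of the other, and the difference was not tested, since each condition has 1 pool.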

How the results depend on the processing

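No paired analysis was possible because the lane numbers mark technical runs of 1 pool per condition and no result comes from a test. Of 331 recomputed log2 ratios of the 7 genes over all nuclei and in SPN-like and glutamatergic-like nuclei, 239 stayed within the counting interval of the reported value and 92 moved. None of those called there changed sign when 1 choice was changed, though over all female nuclei on plain CPM Adora2a had 0.06 and Rgs9 0.03. Settings that left 0 UMIs gave no ratio and are not among the 331. This holds for Rarb and Rgs9, both called lower in glutamatergic-like nuclei, when the full tracer list was taken out. The tracer reckoning in other classes is not among the 331. Its premise failed for Rarb and Rgs9 in glutamatergic-like nuclei by the full list, so its turns of sign decide nothing. By the full tracer list the reckoning turned Rarb (0.59) and Adcy5 (0.19) in PV-like and Adcy5 (1.17) and Rarb (0.38) in astrocyte-like nuclei. Adcy5 in oligodendrocyte-like nuclei was turned by the full list (0.41) and by the list without Rxrg (0.10). Rgs9 in PV-like nuclei was turned by the list without Rxrg (0.90), with 3.92 UMIs left for saline and 10.5 for risperidone. Some ratios that were not called changed sign, mostly by called sex: in SPN-like nuclei Ppp1r1b ran from -1.51 to 1.69, Rgs9 from -1.63 to 0.32 and Adora2a from -1.43 to 0.40, in glutamatergic-like nuclei Ppp1r1b from -0.04 to 0.58, and over all nuclei Ppp1r1b from -0.66 to 0.19 and Penk from -0.65 to 0.17.

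The number called lower in SPN-like nuclei (2) was 1 with plain CPM, 1 without the most deeply read 5% of nuclei, 1 against genes of like length, 0 with a threshold of 1.0, 0 in female nuclei and 6 in male nuclei, and 1 to 2 with a lane left out. The number called higher there (1) was 0 with DESeq2 size factors, with a threshold of 1.0, with a floor of 2000 UMIs, with the stricter marker rule, in male nuclei and against like length, and 2 in female nuclei. In glutamatergic-like nuclei the 4 called lower became 0 with a threshold of 1.0, 2 after tracer UMIs were taken out, with or without Rxrg in the list, and 3 by Drd2 alone, with plain CPM, in male nuclei and against like length, and the 0 called higher became 1 in male nuclei. With the full list, the calls of Rarb and Rgs9 were lost because more UMIs were expected than counted. Over all nuclei the 5 called lower became 3 with plain CPM, 0 with a threshold of 1.0, 2 in female nuclei and 3 against like length. Of the pathway genes, those called lower became 3 in SPN-like (from 5) and 3 in glutamatergic-like nuclei (from 7) with a minimum of 10 CPM, and those called higher in SPN-like nuclei (3) ran from 2 to 7 with a lane left out. The share of SPN-like nuclei was 0.306% (saline) and 0.449% (risperidone) under the stricter rule, 0.955% for saline with the UMI floor, 0.464% and 1.32% in female and 1.49% and 0.203% in male nuclei, and 0.728% to 0.941% and 0.786% to 0.971% by single lane. The expected share of Rarb UMIs was 33.3% and 18.3% by Drd2 and 86.4% and 78.2% without Rxrg, and 142% to 173% for saline with a lane left out. Ratios of SPN-like to glutamatergic-like levels under the stricter rule were 19.5 (Ppp1r1b), 14.9 (Adcy5), 36.5 (Rgs9), 2.29 (Pde10a), 120 (Adora2a), 44.2 (Penk) and 42.8 (Rarb). Thinned to 2000 UMIs they were 14.1 (Adcy5), 2.22 (Pde10a) and 39.2 (Rarb), and under the first glutamatergic rule 13.9 (Adcy5), 33.2 (Rgs9) and 41.1 (Rarb). With at least 2 receptor UMIs the ratio of Drd2 to Drd1 nuclei was 1.20 (Rgs9), 1.45 (Pde10a), 6.19 (Penk) and 0.763 (Rarb). Small counts limit Ppp1r1b, Adora2a and Penk outside SPN-like nuclei, and the single sex and tracer settings, the length bins and the first glutamatergic rule were added after seeing the data.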
